A study of Mus musculus with 6 samples.

Results

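The genes of the cytosolic ribosomal proteins were taken from the deposited expression table by their symbols, Rpl or Rps followed by a number, the stalk genes Rplp0, Rplp1 and Rplp2, and Rpsa. This rule left out the Rps6k kinases and pseudogenes marked by -ps in their symbol. It gave 85 of 35413 restored genes, 53 of the large and 32 of the small ribosomal subunit. Among them, Rpl6l and Rpl32l were not matched to an annotated coding sequence. Macrophages grown from the bone marrow of C57BL/6 mice in M-CSF (10 ng/ml, 7 days), termed BMDMs, were sequenced as 3 untreated libraries (Ctrl) and 3 libraries made 12 h after stimulation with zoledronic acid (ZA), a nitrogen-containing bisphosphonate that blocks bone resorption. The ZA concentration of these cultures is not given in the sources used here, and the sample labels do not say whether the cultures came from separate animals, so the tests below measure only the spread between these samples, which may be technical. Libraries held 41230600 to 42155808 fragments, and the expression unit throughout is FPKM, that is, fragments scaled by gene length and by the library's total.

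Each ribosome carries 1 copy of most ribosomal proteins, and the cell therefore makes them in nearly equal amounts. Their mRNAs are among the most abundant of a growing cell and begin with a terminal oligopyrimidine (TOP) tract, a C followed by a run of C and T, through which mTOR signalling and the RNA-binding protein Larp1 control their translation. In macrophages, as in other cells, ribosomal protein synthesis follows growth signals and nutrient supply.

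Start-site sequences are shown because the mRNAs of this gene class begin with a TOP tract. They cover the 7 members with the highest log2 fold change among those with an unadjusted p-value under 0.05 below and a RefSeq window. Rps27a was not matched to a window. They are 30 bases each from the RefSeq promoter windows of build GRCm38.p6, in the direction of transcription, and capitals mark the longest run of C and T beginning with C within 50 bases of the annotated start. Rps21 is shown as a member with a lower mean in ZA, and Rplp0 as a member whose run is short. In the order printed, the runs begin at 14, 22, -1, 33, 28, -16, -20, 34 and 13 bases from the annotated start, negative before it. A TOP tract begins at the first base of the mRNA, so these are runs near the start, and which of them are TOP tracts was not tested.
Rpl11 (chr4:136053357-136053386, minus strand): cggaagtCTCCCTCTCTCTTCCTgttctcc
Rps7 (chr12:28635910-28635939, minus strand): tgtccccaCCTCTTTTCTTCCgccacccgg
Rps6 (chr4:86857349-86857378, minus strand): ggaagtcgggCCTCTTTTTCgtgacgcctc
Rpl6 (chr5:121204521-121204550, plus strand): cgctgccttagttCTCTTTCCCgtcttgca
Rpl37 (chr15:5116632-5116661, plus strand): gcgggggtgCTTTCTCTTCCggtctctttg
Rpl13 (chr8:123102324-123102353, plus strand): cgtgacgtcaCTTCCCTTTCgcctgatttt
Rpl5 (chr5:107900498-107900527, plus strand): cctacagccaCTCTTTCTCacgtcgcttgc
Rps21 (chr2:180257399-180257428, plus strand): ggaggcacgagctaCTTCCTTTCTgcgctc
Rplp0 (chr5:115559468-115559497, plus strand): gaccgcctggttCTCCTataaaaggcacac

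Of the members with a mean FPKM of at least 1, 60 had a RefSeq window. The longest run reached 7 bases or more in 52 of these 60 (86.7%), against 3380 of 7853 other tested genes (43.0%) and 12021 of all 27025 genes with a window (44.5%). Its median length was 10 bases in the members and 6 in the other tested genes. The letters CTCTTTC, searched on the transcribed strand and overlapping with these runs, occurred in the 300-base windows of 13 members (21.7%), among them Rpl11, Rpl6 and Rpl5, against 4.58% of other tested genes and 4.60% of all. CCGGAAG, a form of the site bound by GABP and other ETS factors and searched on both strands, was found in 25 members (41.7%), 22.7% of other tested genes and 9.93% of all. AAGATGGC, a core of the YY1 site searched on both strands, was found in 6 members (10%), 6.06% of other tested genes and 3.19% of all. TATAAA on the transcribed strand was found in 6 members (10%), 5.08% of other tested genes and 9.77% of all, and in Rplp0 it overlaps the end of the printed run. The matches describe the letters in these windows and were not tested against any readout.

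**Figure D1:**
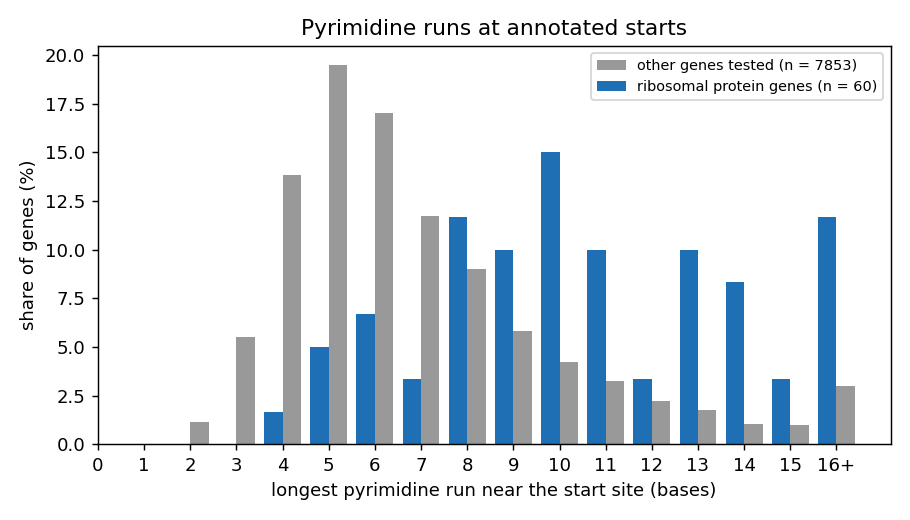
Share of genes (y axis, %) by the length of the longest run of C and T that begins with C within 50 bases of an annotated start (x axis, bases, 16 and more pooled), for 60 ribosomal protein genes (blue) and 7853 other tested genes (grey). The members' bars lie to the right of the others, with medians of 10 and 6 bases.

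The members were expressed at high levels in BMDMs. Of the 85 members, 81 passed the filter on low values, a mean FPKM of at least 1 over the 6 libraries, 49 of the large and 32 of the small subunit. Their median mean FPKM was 447, against 9.04 over all 9800 genes tested, and their levels ran from 16.7 to 1422, with at least 904 fragments for each member in each library. By mean FPKM the highest were Rplp1 (1422), a protein of the acidic stalk that recruits elongation factors, Rpl10 (1275), which completes the large subunit late in its assembly, Rpl41 (1012), one of the smallest known proteins, Rps29 (999.9) and Rps9 (974). The lowest of those tested were Rps27l (16.7), Rpl21 (31.0), Rpl7l1 (33.2), Rpl6l (38.1) and Rps15a (49.1). These levels depend on the gene length behind the FPKM, which was 5136 bases for Rps15a and 468 bases for Rplp1.

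Together the members took 2.96%, 3.01% and 2.98% of all fragments in Ctrl 1, 2 and 3, and 2.99%, 3.12% and 3.07% in ZA 1, 2 and 3. ZA 2 and ZA 3 lay above every Ctrl library, while ZA 1 lay between Ctrl 3 and Ctrl 2. Exact binomial 95% intervals, which cover counting error alone, were narrow, for example 2.957 to 2.968% in Ctrl 1 and 3.119 to 3.130% in ZA 2. The mean share was 2.98 ± 0.0238% in Ctrl and 3.06 ± 0.0696% in ZA (SD over 3 libraries each), a difference of 0.0771 percentage points. Without ZA 2 this difference was 0.0450. In summed FPKM, a share per length, the members held 8.42 ± 0.0551% in Ctrl and 8.61 ± 0.166% in ZA.

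Whether ZA changed the expression of single members was tested with limma on log2(FPKM + 1) over all 9800 genes. No member reached an adjusted p-value under 0.05, against 36 genes of the whole table (0.204% of genes higher and 0.163% lower). At an unadjusted p-value under 0.05, 17 of the 81 tested members were higher in ZA and 0 were lower (21.0% and 0%), against a background of 7.50% of all genes higher and 4.85% lower. Among 146 other genes at or above the lower quartile of the members in mean FPKM, both shares were larger than over all genes, at 15.1% higher and 20.5% lower. The median log2 fold change of these 146 genes was -0.008. The log2 fold change was above 0 in 67 of the 81 members, against 56.9% of all genes tested. Differences were small: the members' log2 fold changes ran from -0.07 to 0.12, with a median of 0.036, beside a median of 0.010 over all genes. The largest, that of Rps27a, corresponds to a rise of 8.55% in FPKM + 1.

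The count of members depended on the libraries and on the scaling. Without ZA 2 it was 8 higher and 3 lower (Rpl39, Rplp1 and Rps29), that is 9.88% and 3.70% of the members, beside 5.68% and 4.24% of all genes. Without Ctrl 3 it was 9 higher and 0 lower, beside 7.10% and 5.09% of all genes. Without ZA 1 it was 28 higher and 0 lower, beside 8.65% and 5.61%. After median centring of the libraries, 9 members were higher and 1, Rplp1, was lower, beside 5.18% and 6.78% of all genes. After quantile normalization these were 16 and 0 members, beside 5.86% and 6.01% of all genes. Only 11 of these 16 were among the 17 higher members of the main comparison. Rplp0, one of the 17, had a log2 fold change of 0.0076 there, against 0.047 in the main comparison. The members' median stayed above 0 in all 14 alternatives, from 0.016 without ZA 2 to 0.052 without ZA 1. Over all genes the median was 0.011 without ZA 2 and 0.0076 without ZA 1. Without ZA 2, 65.4% of the members and 57.4% of all genes had a log2 fold change above 0, so there the members lay near the background.

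**Figure D2:**
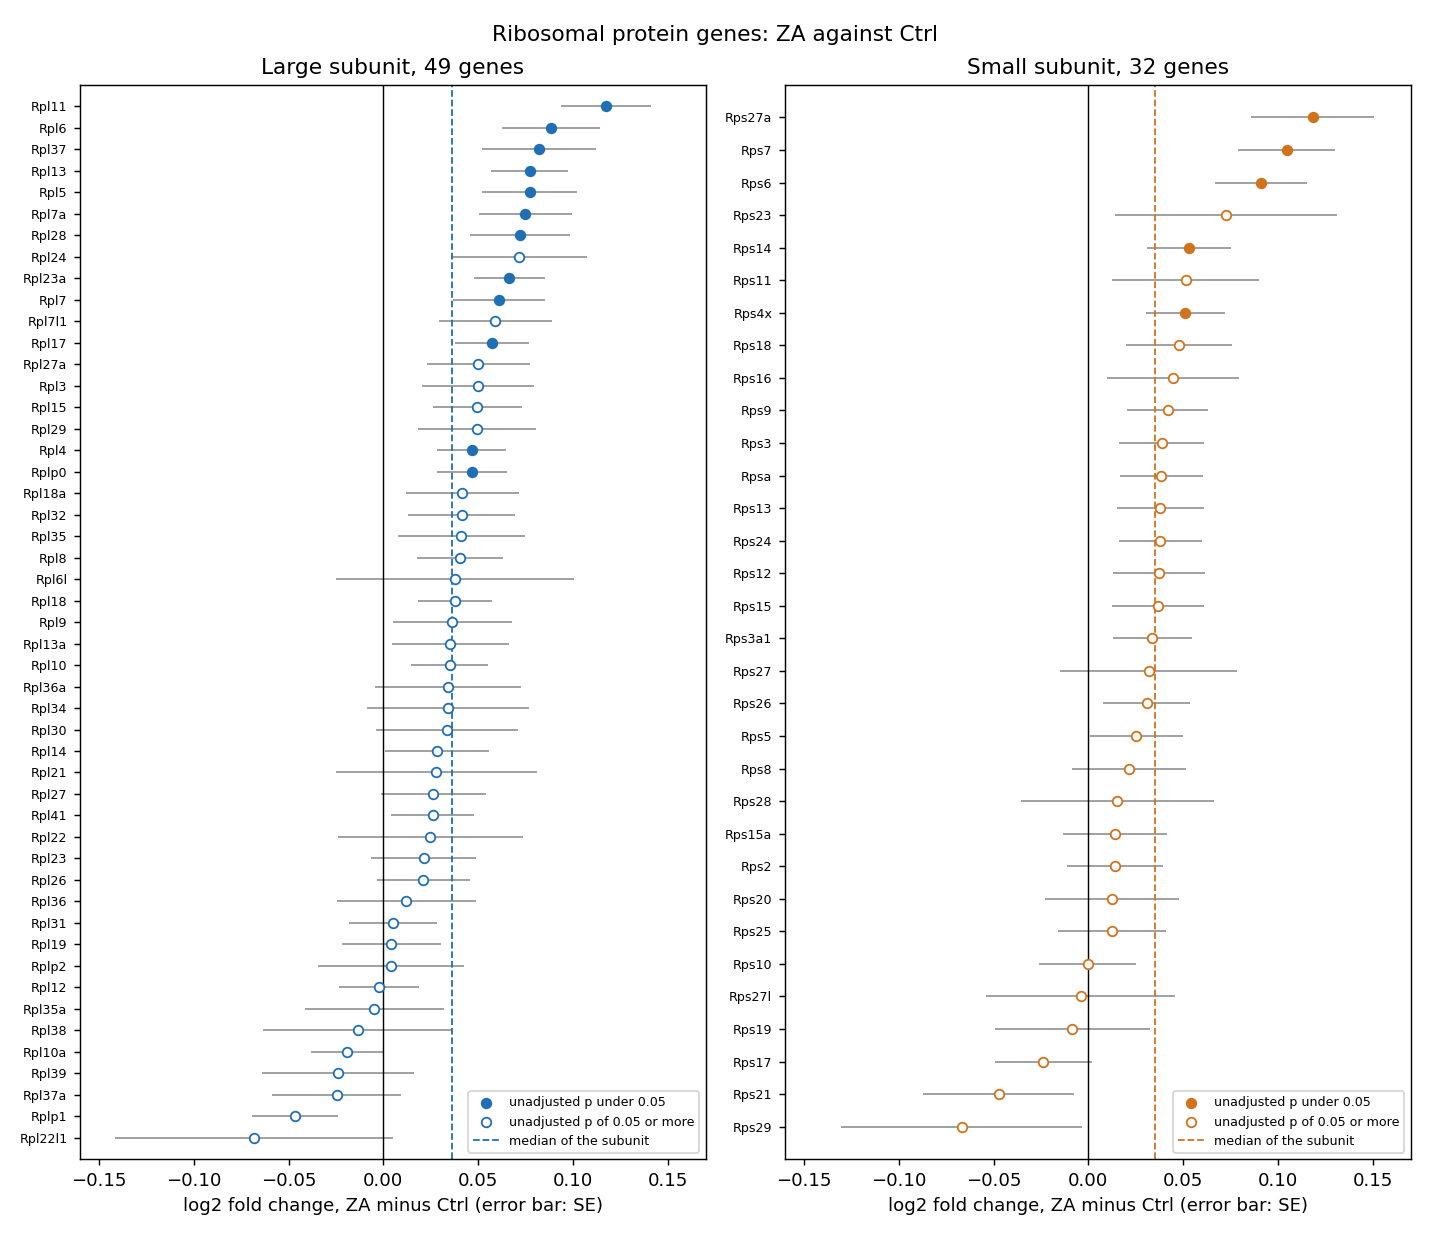
The log2 fold change of each tested member (x axis, ZA minus Ctrl on log2(FPKM + 1), error bars SE) for 49 large subunit genes (left) and 32 small subunit genes (right), ordered by value. Filled points, 12 on the left and 5 on the right, have an unadjusted p-value under 0.05 and all lie above 0, and dashed lines mark medians of 0.036 and 0.035.

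Rpl11 and Rpl5 bind the 5S ribosomal RNA, join the large subunit together with it and, when free, bind Mdm2. Rpl11 had FPKM values of 187, 194 and 192 in Ctrl 1, 2 and 3 and of 204, 207 and 210.5 in ZA 1, 2 and 3. The groups did not overlap, and its log2 fold change was 0.12 ± 0.024 (SE), the member with the lowest adjusted p-value (0.0966, limma). With voom on fragments recovered from the FPKM values its adjusted p-value was 0.0397, the single member past the threshold under any of the alternatives. With voom 132 of all 9800 genes tested were past this threshold, against 36 in the main comparison. Rpl5 stood at 285, 282 and 271 in Ctrl and at 295, 291 and 298 in ZA. Its groups did not overlap either, with a log2 fold change of 0.077 ± 0.025 and an adjusted p-value of 0.268. Of the 150-base stretches of the Rpl5 transcript 88.2% also occur in transcripts of other genes, and of Rpl11 49.6%, so that the split of their reads is uncertain.

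The largest log2 fold change was that of Rps27a, which encodes ubiquitin fused to a protein of the small subunit. It was measured at 394, 401 and 385 FPKM in Ctrl and at 412, 448 and 422 in ZA, without overlap, a log2 fold change of 0.12 ± 0.032 (adjusted p = 0.205, limma). Of the Rps27a stretches 66.0% occur in other genes.

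Rps7 and Rps6, both of the small subunit, followed. Rps7, which takes part in processing of the small subunit's RNA and is mutated in some patients with Diamond-Blackfan anaemia, was at 353, 344 and 346 FPKM in Ctrl and at 362, 378 and 382 in ZA, a log2 fold change of 0.10 ± 0.025 (adjusted p = 0.155). Rps6, the ribosomal substrate of the S6 kinases downstream of mTOR, was at 345, 344 and 356 in Ctrl and at 373, 363 and 378 in ZA, a log2 fold change of 0.091 ± 0.024 (adjusted p = 0.194). For both, every ZA library exceeded every Ctrl library. Stretches shared with other genes made up 53.2% of Rps7 and 82.4% of Rps6. Rps4x and Rps14 completed the small subunit genes under 0.05, with log2 fold changes of 0.051 ± 0.021 and 0.053 ± 0.022, with 4.48% and 10% of stretches shared.

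In the large subunit 12 of 49 tested members were higher at this unadjusted threshold. Rpl6 was at 298, 301 and 304 FPKM in Ctrl and at 310.4, 319.8 and 329.6 in ZA, with a log2 fold change of 0.089 ± 0.026 (adjusted p = 0.232). Rpl13 was at 572, 589 and 581 in Ctrl and at 610.2, 620.4 and 607 in ZA, with 0.077 ± 0.020 (adjusted p = 0.193). Neither pair of groups overlapped, and ZA 1 was the lowest ZA library in Rpl6 but not in Rpl13. Rpl23a, near the exit of the peptide tunnel, stood at 572, 558 and 563 in Ctrl and within a narrow band of 589.6 to 594 in ZA, a log2 fold change of 0.066 ± 0.019. Rpl4, with a long extension that lines the tunnel, was at 524, 531 and 528 in Ctrl and at 541, 546 and 547 in ZA, with 0.047 ± 0.018, the smallest SE of any member. Only 0.0720% of the Rpl4 stretches occur in other genes, against 77.2% of Rpl13 and 73.2% of Rpl23a. Rpl7a, Rpl17, Rpl28, Rpl37 and Rpl7 had log2 fold changes of 0.075, 0.057, 0.072, 0.082 and 0.061, with adjusted p-values between 0.274 and 0.369. The groups did not overlap in any of the 17.

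**Figure D3:**
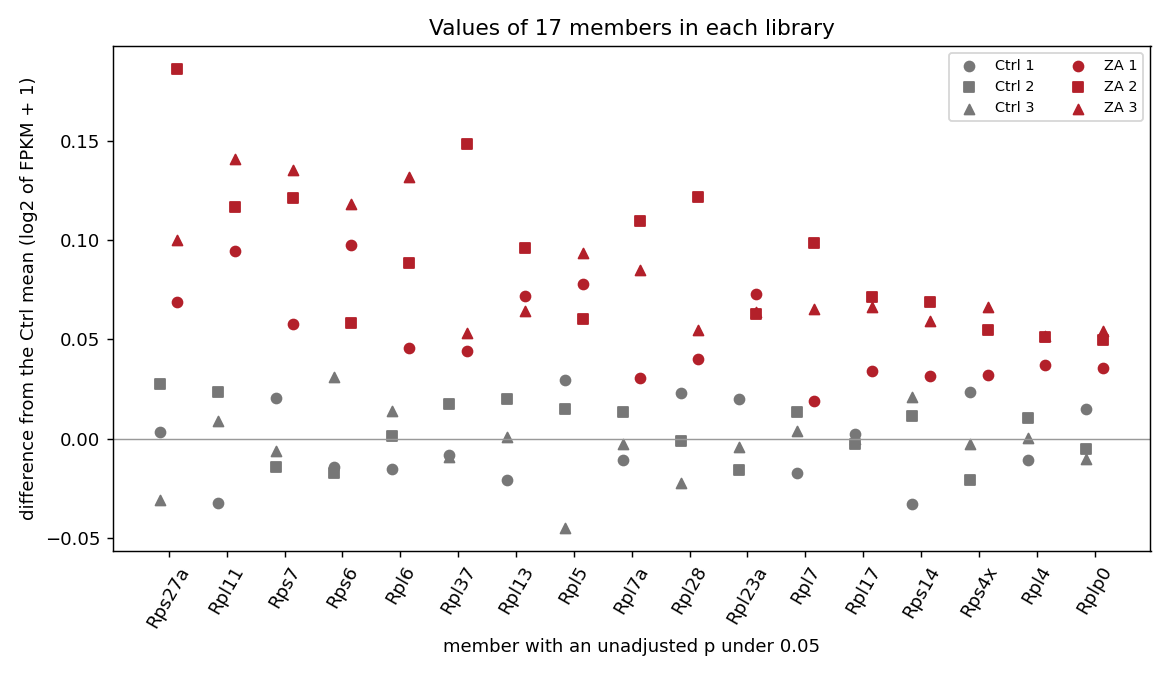
Difference of log2(FPKM + 1) from the Ctrl mean (y axis) for the 17 members with an unadjusted p-value under 0.05 (x axis, ordered by log2 fold change), with Ctrl libraries in grey and ZA libraries in red, circles for replicate 1, squares for 2 and triangles for 3. In each member the 3 ZA points lie above the 3 Ctrl points, and the member shown at the left, Rps27a, has its highest value in ZA 2.

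Counting by overlap alone, the 3 ZA libraries lay above the 3 Ctrl libraries in 22 of the 81 tested members (27.2%) and below them in 0, against 11.4% and 6.76% of all genes tested. Besides the 17 above these were Rpl15, Rpl18, Rpl8, Rps13 and Rpsa. Rpsa, which is also known as the laminin receptor, was at 370.1, 371 and 363 FPKM in Ctrl and at 375, 373 and 386 in ZA, with a log2 fold change of 0.039 ± 0.022 (adjusted p = 0.51). In the other 59 members the groups overlapped.

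The 3 stalk genes, which encode the flexible arm that binds elongation factors, did not share a direction. Rplp0, the base of the stalk, was at 788, 777 and 774 FPKM in Ctrl and at 799, 807 and 809.5 in ZA, without overlap, with a log2 fold change of 0.047 ± 0.018 (adjusted p = 0.360). Rplp1 was at 1454, 1459.6 and 1421 in Ctrl and at 1369, 1429.6 and 1398 in ZA, with -0.047 ± 0.023 (adjusted p = 0.453), and only ZA 2 reached into the Ctrl range. Rplp2 was at 629, 652 and 621 in Ctrl and at 601, 668 and 640.3 in ZA, where ZA 1 was the lowest and ZA 2 the highest of the 6 libraries, with 0.004 ± 0.039. After centring of each library Rplp0 no longer had an unadjusted p-value under 0.05, while Rplp1 did.

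The share of paralogs in the RNA of their pair ranged widely. Rpl22l1 made up 41.2%, 41.2% and 41.2% of the summed FPKM of Rpl22 and Rpl22l1 in Ctrl 1, 2 and 3, and 37.9%, 39.4% and 41.6% in ZA 1, 2 and 3. The 3 Ctrl libraries were nearly equal, and the ZA libraries lay on both sides of them. Rpl22l1 itself was at 52.0, 53.4 and 56.7 FPKM in Ctrl and at 45.1, 54.6 and 55.4 in ZA, and Rpl22, an RNA-binding protein of the large subunit, at 74.2, 76.3 and 80.9 in Ctrl and 74.0, 83.9 and 77.8 in ZA, neither near the threshold (adjusted p = 0.747 and 0.875). Their coding sequences are identical at 70.2% of aligned bases.

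Rpl36al, which the symbol rule leaves out, held 45.6 ± 2.17% of the pair with Rpl36a in Ctrl and 44.5 ± 0.769% in ZA (SD over 3 libraries each). The coding sequences of this pair are identical at 87.7% of aligned bases, and 81.1% of the Rpl36a stretches occur in other genes. Rpl6l, an entry listed with Rpl6, held 11.1 ± 0.612% of that pair in Ctrl and 10.8 ± 0.599% in ZA, from 1362 to 1625 fragments per library. Rpl7l1 held 5.29 ± 0.0920% of the pair with Rpl7 in Ctrl and 5.29 ± 0.0519% in ZA, Rps27l 2.96 ± 0.0763% and 2.89 ± 0.118% of the pair with Rps27, so that the shares of these 3 paralogs differed between the groups by less than their spread. Rps27 itself was at 565, 552 and 527 FPKM in Ctrl and 539, 604 and 540.04 in ZA, and 98.0% of its stretches occur in other genes. Rpl3, at 540.2, 571 and 578 in Ctrl and 574, 595 and 579.9 in ZA, also had overlapping groups.

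All 4 members under the filter were of the large subunit, and each is listed with a main form that was highly expressed. Rpl10l, a retrogene known for its role in the male germ line, had 0 fragments in each library, which allows up to 3. Rpl3l, the form of Rpl3 found in heart and skeletal muscle, had 0 to 2 fragments per library. Rpl39l was at 0.642, 0.531 and 0.501 FPKM in Ctrl and at 0.677, 0.475 and 0.331 in ZA, from 12 to 24 fragments, and Rpl32l at 0.486, 0.569 and 0.485 in Ctrl and at 0.287, 0.569 and 0.601 in ZA, from 7 to 15 fragments. The groups overlapped in both genes. Their main forms Rpl10, Rpl3, Rpl39 and Rpl32 had means of 1259, 563, 450.4 and 683 FPKM in Ctrl.

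The comparison of the large with the small subunit gave nearly equal values. The median log2 fold change was 0.036 over the 49 tested members of the large subunit and 0.035 over the 32 of the small subunit. At an unadjusted p-value under 0.05, 24.5% of the large and 15.6% of the small subunit members were higher. By library, the median difference from the Ctrl mean on log2(FPKM + 1) in the large subunit minus that in the small subunit was -0.0085, 0.0040 and 0.0064 in Ctrl 1, 2 and 3, and -0.0064, 0.014 and 0.010 in ZA 1, 2 and 3. The values of the ZA libraries overlap those of Ctrl, with means of 0.0006 ± 0.0080 in Ctrl and 0.0061 ± 0.011 in ZA (SD over 3 libraries each). The share of fragments was 1.77 ± 0.0150% for the large and 1.21 ± 0.00879% for the small subunit in Ctrl, and 1.82 ± 0.0398% and 1.24 ± 0.0298% in ZA.

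**Figure D4:**
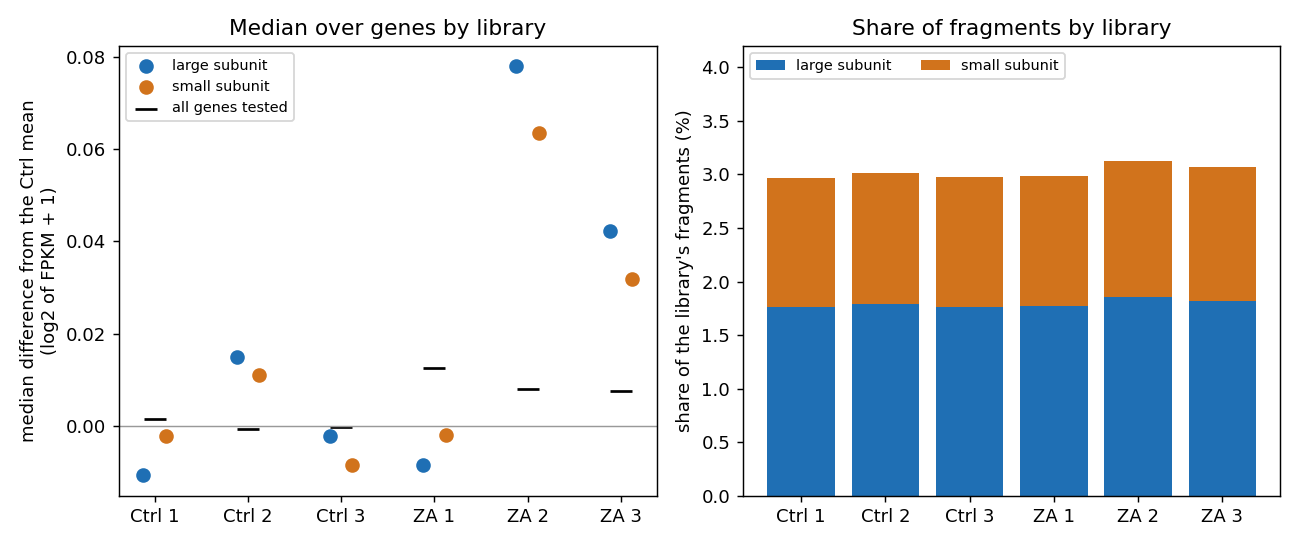
Left, the median over large subunit genes (blue), small subunit genes (orange) and all tested genes (black bars) of the difference from the Ctrl mean of log2(FPKM + 1) in each library. Right, the share of each library's fragments (%) from both subunits, stacked: the subunits move together, ZA 2 is highest at 3.12% and ZA 1, at 2.99%, lies within the Ctrl range.

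Member values were spread more widely over the ZA libraries than over the Ctrl libraries, a difference in spread that was not itself tested. The members' median difference from the Ctrl mean was -0.005 in ZA 1, 0.073 in ZA 2 and 0.042 in ZA 3, and 39, 79 and 67 of the 81 members lay above the Ctrl mean. In Ctrl 1, 2 and 3 these counts were 30, 57 and 35. ZA 1 was the lowest of the ZA libraries in 72 members and ZA 2 the highest in 58. Over all genes tested the median difference from the Ctrl mean was 0.013, 0.0081 and 0.0077 in ZA 1, 2 and 3. The counts above the Ctrl mean and the order of the ZA libraries were not taken over all genes. The median SD of a member was 0.023 in Ctrl and 0.041 in ZA, and the SD was larger in ZA in 56 of 81 members (69.1%), against 52.4% of all genes. Among the members, the wider spread lay in the 49 with a coding length under 500 bases, a limit chosen after the values were seen. Their median SD was 0.024 in Ctrl and 0.052 in ZA, and the SD was larger in ZA in 79.6%. In the 31 longer members these were 0.022, 0.025 and 51.6%. The SDs of other genes were not split by coding length. Rps29 had the widest range in ZA among the 5 most abundant members, at 898, 1096 and 942 FPKM, against 1017, 1009.7 and 1037 in Ctrl. Rps23, chosen after its values were seen, had instead 1 low Ctrl library, at 699, 836 and 796 in Ctrl and 793, 836 and 815 in ZA.

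Coding length went with the change. Over 80 tested members with an annotated coding sequence, the log2 fold change had a Spearman's rho of 0.53 and a Pearson's r of 0.46 with (log) coding length. These are correlations across genes of the same 6 libraries, and genes are not independent replicates. With a limit of 500 bases, chosen after the values were seen, the 31 longer members had a median log2 fold change of 0.042, with 30 above 0 and 12 higher at an unadjusted p-value under 0.05. The 49 shorter ones had a median of 0.026, with 36 above 0 and 5 higher. As shares, 38.7% of the longer and 10.2% of the shorter members were higher, beside 7.35% of longer and 7.12% of shorter other genes. Among the other genes tested the medians were 0.011 over 8396 longer and -0.005 over 829 shorter genes.

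By library, the gap between shorter and longer members was widest in ZA 1. The shorter members had medians of -0.028, 0.076 and 0.029 in ZA 1, 2 and 3, and the longer ones 0.028, 0.066 and 0.052. In ZA 1, 34 of 49 shorter and 7 of 31 longer members lay below the Ctrl mean. The other genes showed the same order in ZA 1, with -0.022 in shorter and 0.015 in longer genes, and the reverse in ZA 2, with 0.017 and 0.0064. The part of coding length in the members' change was not tested. Mean FPKM had little relation to the log2 fold change (rho 0.079), and the share of stretches found in other genes a weak one (rho 0.25). Of the 80 members with an annotated transcript, 11 share no stretch with another gene and 23 share over 50%.

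**Figure D5:**
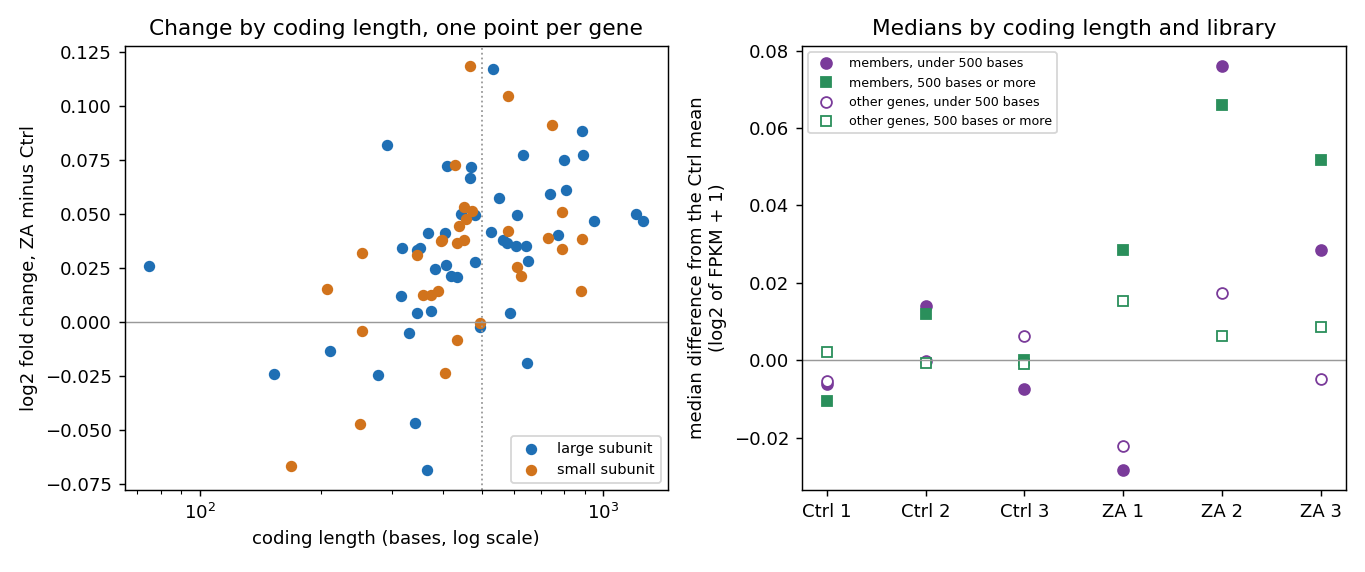
Left, log2 fold change (ZA minus Ctrl) against coding length in bases (log scale) for 80 members, with the limit of 500 bases dotted. Right, median difference from the Ctrl mean of log2(FPKM + 1) by library for members (filled) and other tested genes (open) under (circles) and over (squares) 500 bases: in ZA 1 the short members lie below 0 and the long ones above, while in ZA 2 they lie at 0.076 and 0.066.

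The other genes of the translation machinery were counted by lists. The background for these counts is 7.50% of all genes tested higher and 4.85% lower at an unadjusted p-value under 0.05 (limma). Of 3 ribosomal proteins outside the symbol rule, 0 passed an unadjusted p-value of 0.05 in either direction. Fau, which encodes a small subunit protein fused to a ubiquitin-like domain, had a log2 fold change of 0.027, Rack1, a scaffold on the small subunit, 0.025, and Rpl36al -0.031.

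Of 17 TOP mRNAs that do not encode members, 7 were higher and 0 lower at an unadjusted p-value under 0.05, with a median log2 fold change of 0.040 and 16 above 0. None had an adjusted p-value under 0.05. Eef1a1, which delivers aminoacyl-tRNA to the ribosome, was at 4327, 4352 and 4397 FPKM in Ctrl and 4501, 4581 and 4604 in ZA, a log2 fold change of 0.066 ± 0.019 (adjusted p = 0.224). Eef2, the translocation factor, was at 814, 803 and 796 in Ctrl and 865, 835 and 847 in ZA, with 0.077 ± 0.021 (adjusted p = 0.203). Pabpc1, the cytoplasmic poly(A)-binding protein, was at 242, 235 and 234 in Ctrl and 255, 249.9 and 253 in ZA, with 0.094 ± 0.022 (adjusted p = 0.133). In these 3 genes every ZA library lay above every Ctrl library, ZA 1 included. Tpt1 had a log2 fold change of 0.015 and Npm1 of 0.040, both with overlapping groups.

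Of 34 initiation factors, 6 were higher and 1 lower at the unadjusted threshold, with a median of -0.001, and 4 of these 6 (Eif3e, Eif3f, Eif3h and Eif4b, named after their values were seen) are also among the 7 TOP mRNAs above. Of 11 elongation and termination factors, 2 were higher (Eef1a1 and Eef2, again on both lists) and 2 lower, with a median of 0.004. With each library centred, 3 initiation factors were higher and 2 lower, and 2 elongation and termination factors were higher and 2 lower. Of 50 ribosome biogenesis genes, 1 was higher and 0 were lower, with a median of -0.008, and with each library centred 1 was higher and 4 were lower. Ncl and Fbl, nucleolar proteins of ribosomal RNA processing, had log2 fold changes of 0.032 and -0.025. Among 14 genes that control TOP mRNA translation, 0 were higher and 0 lower, with a median of 0.012. With each library centred, 0 of these were higher and 1 was lower. Mtor had a log2 fold change of 0.014, Larp1 of 0.047 and Eif4ebp1, an inhibitor of cap-dependent initiation, of 0.052. Of 18 members mutated in Diamond-Blackfan anaemia, an inherited failure of red cell formation, 3 were higher (Rpl11, Rpl5 and Rps7) and 0 lower, with a median of 0.029. Over all 81 tested members 21.0% were higher and 0% lower, with a median of 0.036. None of the genes on these lists had an adjusted p-value under 0.05.

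Markers of the cells in the cultures were read beside these results. The background at the unadjusted threshold was again 7.50% of all genes tested higher and 4.85% lower. All 8 macrophage markers were detected, with a summed FPKM of 23609 to 27519 in Ctrl and 24498 to 28005 in ZA, and 3 of them (Adgre1, Csf1r and Cd14) were higher at the unadjusted threshold of 0.05. The highest value of a single gene on this list was 24669 FPKM, so the sums are not spread evenly over the 8 markers. Of 11 neutrophil and myeloid progenitor markers, 7 were tested and 4 of these (Elane, Mpo, Prtn3 and Ngp) were lower by the same threshold, with sums of 37.7 to 53.3 in Ctrl and 33.8 to 39.0 in ZA. Sums for fibroblast and stroma markers were 17.3 to 31.3 in Ctrl and 15.7 to 22.3 in ZA, with 1 of 3 tested (Dcn) lower, and for osteoclast markers 40.3 to 46.9 and 38.6 to 42.4, with 1 of 2 tested (Acp5) lower. T cell markers summed to at most 9.73 FPKM, nearly all of it Cd4, B cell markers to at most 3.01, erythroid markers to at most 2.68 and dendritic cell markers to at most 0.459. Of these lists 1 T cell, 1 B cell, 1 erythroid and 0 dendritic cell markers were abundant enough to be tested, and the 3 tested did not pass the threshold. In bulk RNA a change in the mix of cells and a change of RNA within cells cannot be told apart, and the part of these markers in the members' change was not tested.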

How the data were processed

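RNA of 6 BMDM cultures was sequenced in paired-end reads of 150 bases, 3 Ctrl and 3 ZA per the labels, in which a VAHTS and a SMARTER library kit are named. FPKM values were deposited by the authors in a single table, a unit recorded as other because most rows hold the symbol and the 6 values without separators. The submitters' processing notes name the build mm9, and the aligner, the counting program and the annotation are not given in the sources used here. Rows were rebuilt by number format and by the rule that each FPKM is a whole number of fragments over length (20 to 250000 bases) and library total, with a margin of 3 powers of 10. Of 35434 rows 35413 were restored and 21 left out, 99.7% of fragments per library were kept, and all 11 intact rows came out identical. In 3000 simulated rows 2998 were exact and 0 wrong. Of the 85 members 78 had 1 possible reading, 6 had several, settled by that rule, and 1 was 0 throughout.

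Log2(FPKM + 1) was compared with limma 3.58.1 in R 4.3.3 (lmFit, eBayes with a trend), two-sided, in the 9800 genes whose mean FPKM was 1 or more, and p-values were adjusted over all of them after Benjamini and Hochberg. The added 1 understates changes of low genes. Tested on simulated data with 200 of 9800 genes changed 2-fold, 99.5% were recovered with 10 false calls. The noise was simulated independently for each gene. The members' log2 fold changes, -0.07 to 0.12, were far smaller than 2-fold, and recovery of changes of their size was not tested. The members and lists were chosen with earlier results of these data known, so lists got counts and medians and no test. Named are members with an unadjusted p-value under 0.05, the 5 highest and 5 lowest tested, those under the filter, paralog pairs, stalk and 5S particle genes, Rps6, Rpsa, and chosen genes of the other lists, which are ribosomal proteins outside the symbol rule, TOP mRNAs, initiation, elongation and termination factors, ribosome biogenesis, control of TOP translation, Diamond-Blackfan genes and cell markers. Rps4l, the paralog of Rps4x, was not analysed here. One gene of the lists is not reported here. Alternatives were a pseudocount of 0.1, no filter, a mean FPKM of at least 5, median centring, quantile normalization, no variance trend, a replicate block, voom on recovered fragments, and leaving out each library. Libraries of a group were not duplicates (chi-square per gene of 3.52 to 9.73). At the median gene length, 3 fragments are an FPKM of 0.0208 to 0.0213.

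Coding lengths, transcript stretches of 150 bases and coding identity came from GENCODE M21 on GRCm38, matched by symbol for 80 of 81 tested members and 94.9% of other tested genes. Start windows (250 bases before to 50 after) came from RefSeq on GRCm38.p6. These builds differ from that of the processing notes, and no coordinate was carried over between them. Python 3.11.15, NumPy 2.4.6, pandas 2.3.3 and Matplotlib 3.10.9 were used.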

Additional observations from a re-analysis of the deposited data

How the results depend on the processing

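The count of 17 higher members became 9 with median centring and 8 without the variance trend, and ran from 8 to 28 when single libraries were left out. Lower members numbered 1 with centring and 0 to 3 with a library left out. Members past an adjusted p-value of 0.05 numbered 1, Rpl11, with voom. The members' median of 0.036 was 0.024 with centring, 0.023 with quantile normalization and 0.016 to 0.052 with a library left out. The median of the large minus that of the small subunit, 0.0013, ran from -0.010 to 0.0094 with a library left out. The difference in share, 0.0771 percentage points of fragments, was 0.187 points of summed FPKM and 0.0450 to 0.114 with a library left out. Over all genes, 36 were past an adjusted p-value of 0.05, against 1 without a filter, 20 with quantile normalization, 1 without the variance trend, 78 with the replicate block, 132 with voom and 0 to 25 with a library left out. The causes were not tested.

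For numbers 1, 2 and 3, deviations from the group mean in same-numbered Ctrl and ZA libraries correlated across genes at 0.284, 0.0393 and 0.280. Over all genes tested, each library correlated best with the one of its own number, though Ctrl 2 reached 0.0334 with ZA 3. Between Ctrl 1 and ZA 3 the value over all genes was -0.297, and between Ctrl 3 and ZA 1 it was -0.244. Over the tested members alone, the same-numbered libraries correlated at 0.102, -0.0255 and 0.219. There Ctrl 2 correlated best with ZA 1, at 0.0409. The labels do not say that the numbers pair the cultures, so the main comparison did not pair them. With the replicate block 20 members were higher and 0 lower at an unadjusted p-value under 0.05, beside 9.23% and 6.12% of all genes, and no member was past an adjusted p-value of 0.05. Over libraries, the members' median difference from the Ctrl mean had an SD of 0.011 in Ctrl and 0.039 in ZA, beside the change of 0.036.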
